A study of Apis mellifera with 12 samples.

Results

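Feeding and energy balance in insects are governed in part by small peptides that neurons and neurosecretory cells release into the brain or the blood. The 5 genes described here encode the precursors of neuropeptide F (*NPF*), short neuropeptide F (LOC100576163), adipokinetic hormone (LOC102656552), insulin-like peptide 2 (*ILP-2*) and corazonin (*Crz*). They were taken by name from the 12292 features of the single-cell files and the 11345 genes of the bulk table, and all 5 were found in both. Earlier results of these data were known when the genes were chosen. Neuropeptide F, a relative of vertebrate neuropeptide Y, promotes feeding in flies, and short neuropeptide F is a separate family that acts on feeding and is made by many mushroom body cells there. Adipokinetic hormone is released from the corpora cardiaca, glands attached to the insect brain, and mobilises lipid and sugar from the fat body. Insulin-like peptides signal nutrient supply, and corazonin is a neurohormone related in sequence to adipokinetic hormone that affects stress responses and metabolism in insects.

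Brains of adult females of the honeybee *Apis mellifera* were compared between 3 groups: mated queens, which had been reared artificially and inseminated, and 2 kinds of worker from 1 colony, nurses seen tending larvae and foragers carrying pollen. Ages are not given in the sources used here. Each group had 2 single-cell libraries and 2 bulk RNA-seq libraries, each made from several pooled brains, so that individual bees cannot be told apart. No genotype or treatment beyond this was given, and the queens thus differ from the workers in rearing and mating as well as in caste.

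In the reference annotation of the Amel_HAv3.1 assembly, *NPF* lies on linkage group 13 from 4430259 to 4433365, and the short neuropeptide F gene on linkage group 4 from 8871345 to 8874821. The adipokinetic hormone gene lies on linkage group 15 from 7661595 to 7663003. *ILP-2* lies on linkage group 14 from 5016214 to 5017942, and *Crz* on linkage group 1 from 25171162 to 25173330. The 5 genes thus lie on different linkage groups.

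The bulk libraries held 13135057 to 15177035 counts. The single-cell libraries held 21250 to 26157 barcodes, of which 16761 to 20988 passed the study's filters, 115169 of 141510 in all. Captured RNA molecules were counted by their molecular tags (UMIs), and the kept cells had median UMI counts of 4531.5 to 5729. Pairs of libraries shared 77 to 130 barcodes, at most 0.679% of the smaller library. The neuronal gene *elav* (LOC410689) was detected in at least 99.6% of the kept cells of every library, so that it marks the tissue but does not separate neurons from other cells. The glial gene *repo* (LOC410151) was detected in 15.3% to 37.2%. The bulk worker libraries also held RNA of the royal jelly proteins *Mrjp1* to *Mrjp9*, products of the head glands, at 1.51% to 41.8% of all counts against under 0.01% in queens. Fat body genes (6 genes, among them vitellogenin) summed to 61546 and 68435 CPM (counts scaled to the same library total) in the bulk queen libraries and to 990 to 2241 CPM in the worker libraries.

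The first question was whether the peptide genes differed between queens and workers. In bulk RNA, adipokinetic hormone and *ILP-2* were higher in queens, by 2.46-fold and 3.26-fold, and the adipokinetic hormone receptor gene *Akhr* was higher as well. None of the 5 genes passed the threshold in the summed single cells, where adipokinetic hormone stood at the same mean level in both groups.

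The adipokinetic hormone gene measured 34.8 and 33.5 CPM in the bulk queen libraries. It measured 13.8 and 11.8 CPM in nurses and 11.9 and 18.4 CPM in foragers. Both queen libraries lay above all 4 worker libraries. The log2 fold change was 1.30 ± 0.18 (SE, 2 queen and 4 worker libraries), with an adjusted p of 0.00244 by edgeR's quasi-likelihood test with Benjamini-Hochberg adjustment over all genes tested.

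*ILP-2* measured 19.0 and 27.8 CPM in the bulk queen libraries. In nurses it measured 6.65 and 6.37 CPM, and in foragers 8.96 and 6.82 CPM. The groups did not overlap, and the log2 fold change was 1.70 ± 0.21 (SE), with an edgeR adjusted p of 0.00134. In bulk a gene was called when its adjusted p was below 0.01 and its log2 change exceeded 1 either way. Under this rule 2 of the 5 peptide genes were called, both higher in queens, where 9.71% of the 9932 genes tested were called, 6.88% higher and 2.83% lower in queens. Both calls were lost when the second queen library was left out, with edgeR adjusted p of 0.0195 for adipokinetic hormone and 0.0151 for *ILP-2*. The call for adipokinetic hormone was also lost without the first queen library, with an adjusted p of 0.0157.

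*Akhr*, which encodes the receptor of adipokinetic hormone and is best known from the fat body, measured 46.5 and 49.4 CPM in the bulk queen libraries and 2.40 to 6.08 CPM in the 4 worker libraries. This was a log2 fold change of 3.56 ± 0.25 (SE; edgeR adjusted p = 9.75e-05). The vitellogenin gene *Vg* and the apolipophorin gene LOC408961, products of the fat body, were also called higher in the bulk queen libraries, at log2 fold changes of 8.72 and 2.93. In the summed cells *Vg* was higher in queens too (5.82), and the 6 genes summed to 32.8 to 52.4 CPM in workers and 39.6 and 107 CPM in queens. In bulk none of the 6 was at 0 in any library, while in the summed cells *Hex70c* had 0 UMIs in the first forager library. The part of fat body RNA in the higher levels of *Akhr*, adipokinetic hormone and *ILP-2* was not tested. In bulk RNA, more cells of a type and more RNA per cell cannot be told apart.

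The other peptide genes were not called between queens and workers in bulk. *Crz* measured 1.94 and 2.66 CPM in queens and 4.04 to 5.28 CPM in workers, without overlap. Its log2 fold change of -0.99 ± 0.30 (SE) had an edgeR adjusted p of 0.0418, which missed the threshold. Short neuropeptide F measured 11.6 and 11.2 CPM in queens and 12.8 to 17.2 CPM in workers (log2 fold change -0.37 ± 0.18, edgeR adjusted p = 0.152). *NPF* measured 5.94 and 8.04 CPM in queens, within the range of 3.18 to 8.77 CPM in workers (log2 fold change 0.03 ± 0.36, edgeR adjusted p = 0.960).

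**Figure D1:**
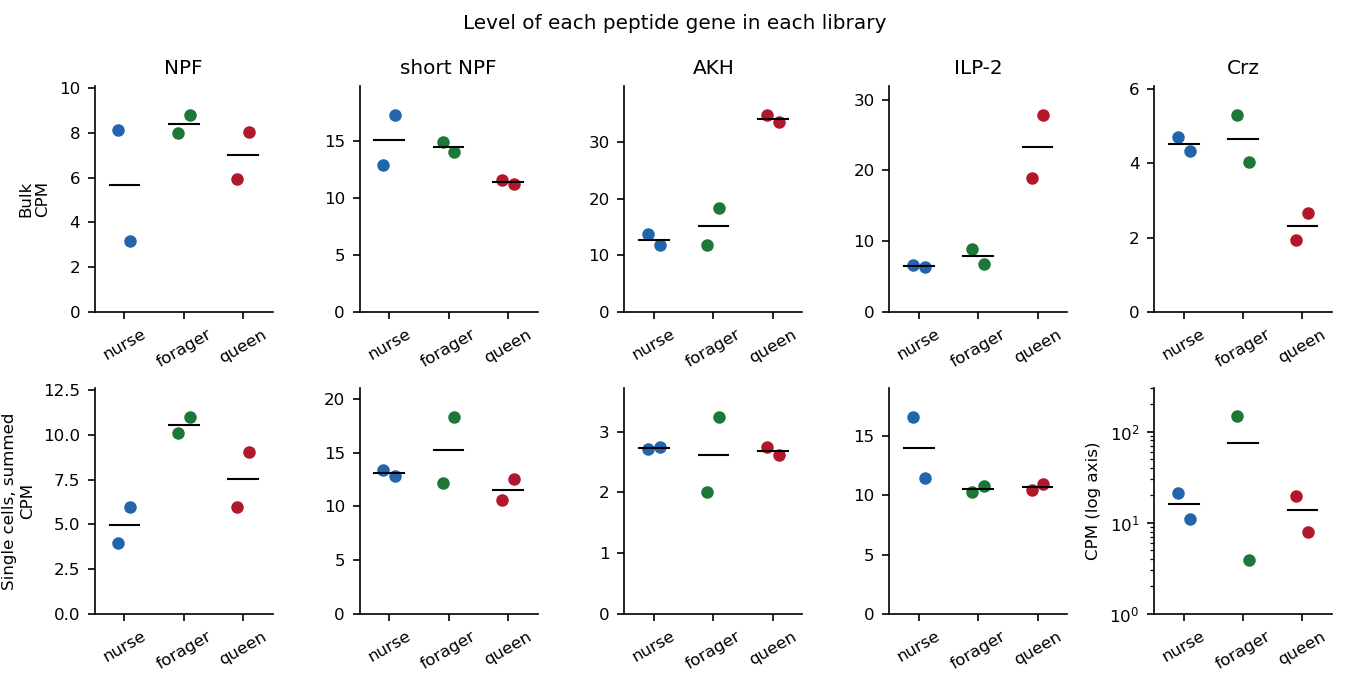
Level of each peptide gene in CPM in the 6 bulk libraries (upper row) and in the summed kept cells of the 6 single-cell libraries (lower row). Points are libraries and black lines are the means of 2 libraries; the axis is logarithmic for Crz in single cells only. In bulk the 2 queen libraries stand above all workers for adipokinetic hormone (AKH) and ILP-2, while the single-cell queen libraries lie among the workers.

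In the single cells, UMIs were summed over all kept cells of a library, so that the library and not the cell was the unit of the test. Adipokinetic hormone measured 2.75 and 2.61 CPM in queens, 2.71 and 2.74 CPM in nurses, and 2.01 and 3.23 CPM in foragers. The queen libraries lay between the worker libraries, and the log2 fold change was 0.00 ± 0.23 (SE; edgeR adjusted p = 0.992). *ILP-2* measured 10.4 and 10.995 CPM in queens, 10.3 and 10.8 CPM in foragers, and 16.6 and 11.5 CPM in nurses. It also overlapped between the groups (log2 fold change -0.18 ± 0.17, edgeR adjusted p = 0.415). The difference between the bulk and the single-cell fold changes was not tested.

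Short neuropeptide F was again somewhat lower in queens, at 10.6 and 12.5 CPM against 12.1 to 18.3 CPM in workers, with a log2 fold change of -0.29 ± 0.18 (SE; edgeR adjusted p = 0.227). *NPF* measured 6.003 and 9.03 CPM in queens, within the range of 3.95 to 10.98 CPM in workers (log2 fold change 0.05 ± 0.23, edgeR adjusted p = 0.864). *Crz* measured 19.4 and 7.995 CPM in queens, within the range of 3.91 to 147 CPM in workers. Its log2 fold change was -1.34, and ranged from -2.11 to 0.79 with 1 library left out in turn. In single cells a gene was called when its adjusted p was below 0.01 and its log2 change exceeded 0.5 either way. Under it 0 of the 5 peptide genes were called by edgeR or by DESeq2, and none of the 5 had an unadjusted p under 0.05. Of the 11158 genes tested 15.4% were called by edgeR and 2324 by DESeq2, and 5597 had an unadjusted edgeR p under 0.05. *Akhr* was at 1.66 and 1.26 CPM in queens and 0.334 to 1.33 CPM in workers (log2 fold change 0.92 ± 0.31, edgeR adjusted p = 0.0484). The corazonin receptor gene *Crzr* was at 3.76 and 1.72 CPM in queens and 0.821 to 1.76 CPM in workers (log2 fold change 1.24 ± 0.32, edgeR adjusted p = 0.0180). In bulk *Crzr* went the other way, with a log2 fold change of -1.39 ± 0.48 (edgeR adjusted p = 0.0637), and was called in neither.

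The second comparison was between the worker groups, foragers and nurses. In bulk, 0 of the 5 peptide genes were called by edgeR or by DESeq2 and 0 had an unadjusted p under 0.05. Of the 9932 genes tested 0.0101% were called by edgeR and 98 by DESeq2, and 1327 had an unadjusted edgeR p under 0.05. In the single cells *NPF* was higher in foragers, but the difference did not pass the threshold in the main test. *NPF* measured 10.1 and 10.98 CPM in foragers and 3.95 and 5.96 CPM in nurses, without overlap. With 2 against 2 libraries a lack of overlap says little, since the smallest p of an exact permutation test is 0.333. The log2 fold change of *NPF* was 1.09 ± 0.27 (SE, 2 against 2 libraries), with an edgeR adjusted p of 0.0780 and a DESeq2 adjusted p of 0.00222. In the second forager library 2 kept cells held 246 and 164 of its 1256 *NPF* UMIs. None of the 5 was called by edgeR, where 0.0807% of all genes were called, and 1, *NPF*, by DESeq2 and at an unadjusted p under 0.05. Of the 11158 genes tested DESeq2 called 487, and 2684 had an unadjusted edgeR p under 0.05. In bulk the log2 fold change of *NPF* was 0.58 ± 0.43 (edgeR adjusted p = 0.592), and the forager values of 7.98 and 8.77 CPM overlapped the nurse values of 8.13 and 3.18 CPM.

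*ILP-2* and *Crz* also differed in mean between the worker groups in single cells, without passing the test. For *ILP-2* both foragers (10.3 and 10.8 CPM) lay below both nurses (16.6 and 11.5 CPM), and the log2 fold change of foragers over nurses was -0.41 ± 0.19 (SE; edgeR adjusted p = 0.237). For *Crz* it was 2.22 ± 1.23 (edgeR adjusted p = 0.307) and rested on the first forager library. This library stood at 147 CPM, the second at 3.91 CPM, the nurses at 21.3 and 10.9 CPM and the queens at 19.4 and 7.995 CPM. Without the first forager library the *Crz* value turned to -2.04 ± 0.60 (edgeR adjusted p = 0.254).

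**Figure D2:**
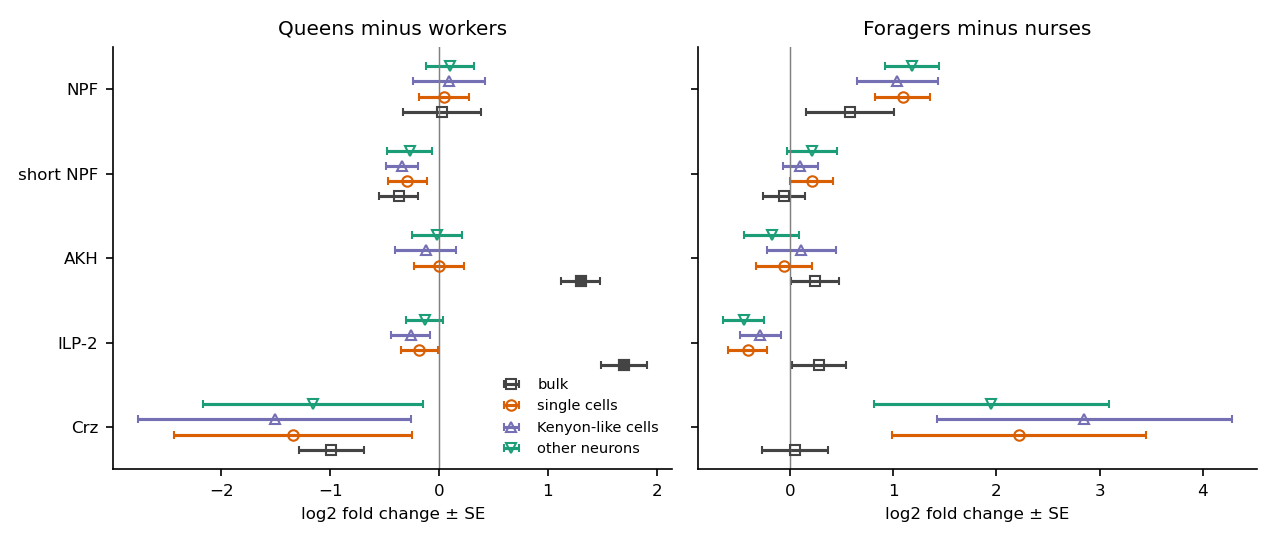
log2 fold change of each peptide gene with its standard error (bars), for queens minus workers (left) and foragers minus nurses (right), in bulk, all kept single cells, Kenyon-like cells and other neurons. Filled symbols passed the threshold. The bulk values of adipokinetic hormone (1.30) and ILP-2 (1.70) passed, and for queens minus workers the values of the same genes in cells lie between -0.26 and 0.00.

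The cells were clustered again from the deposited counts, since the study's cell names were not used here, and the 5 peptide genes took no part in the clustering. Of the kept cells, 41119 fell in Kenyon-like clusters (cells of the mushroom body, a centre of learning), 6783 in glia-like clusters and 347 in a hemocyte-like cluster. The remaining 66920 cells are called other neurons here for short. They are all cells outside these clusters, were not chosen by a neuronal marker, and include unnamed clusters whose cell type is not known. Other neurons made up 55.3% to 62.6% of a library.

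Within the Kenyon-like cells, 0 of the 5 peptide genes were called between queens and workers by edgeR or DESeq2, and 14.7% of all genes were called by edgeR. None of the 5 had an unadjusted p under 0.05. Of the 10502 genes tested DESeq2 called 2195, and 5151 had an unadjusted edgeR p under 0.05. No peptide gene was called between foragers and nurses by either tool (0.0476% of all genes by edgeR, 556 genes by DESeq2). Only 1, *NPF*, had an unadjusted p under 0.05, as had 2659 of all genes by edgeR. Short neuropeptide F measured 14.3 and 14.1 CPM in the Kenyon-like cells of queens and 16.0 to 21.1 CPM in those of workers. The groups did not overlap, and the log2 fold change of -0.34 ± 0.15 (SE) had an edgeR adjusted p of 0.110.

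In other neurons no peptide gene was called between queens and workers by either tool (17.9% of all genes by edgeR), and 0 had an unadjusted p under 0.05. Between foragers and nurses edgeR called none (0.100% of all genes), with 2, *NPF* and *ILP-2*, at an unadjusted p under 0.05, and DESeq2 called *NPF*. Of all genes DESeq2 called 380 there, and 2515 had an unadjusted edgeR p under 0.05. *NPF* measured 10.5 and 14.3 CPM in foragers and 4.36 and 6.58 CPM in nurses there, without overlap. The log2 fold change was 1.18 ± 0.26 (SE), with an edgeR adjusted p of 0.0560 and a DESeq2 adjusted p of 0.000551. In the second forager library 2 of these cells held 246 and 164 of the 939 *NPF* UMIs of the class, so a few cells weighed on its level.

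The next question was which cells held the transcripts. *NPF*, short neuropeptide F and *Crz* each had a few barcodes with very many copies, and most of these were too deep to pass the study's filters. *ILP-2* had no such cell: its highest count was 9 UMIs in any of the 141510 barcodes, and 7788 kept cells held at least 1. Adipokinetic hormone reached 16 UMIs in 1 removed barcode of a queen library and 8 UMIs in a kept cell, and 1655 kept cells held at least 1. For both genes 0 kept cells had 10 UMIs or more, which allows a share of up to 0.0143% to 0.0179% of the kept cells of a library, counting error only.

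In all deposited barcodes, 15 had at least 100 UMIs of *NPF*, a limit chosen after the counts had been seen. The 3 highest held 1609, 1387 and 1106 *NPF* UMIs. The first came from the first forager library, where it made up 7.06% of the 22796 UMIs of the barcode. The other 2 came from the second queen library. Of the 15 barcodes 11 were removed, all of them over the upper limit on UMIs. The kept 4 held 246, 164, 109 and 104 *NPF* UMIs. Neither nurse library had a barcode of this kind, with maxima of 86 and 51 UMIs. The difference between nurses and the other groups was not tested for these barcodes.

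Filtering changed what could be seen of *NPF* in 2 libraries. The filters removed 34.7% to 46.1% of all UMIs of a library, but 71.3% of the *NPF* UMIs in the first forager library and 80.0% in the second queen library. In the other 4 libraries they removed 25.03% to 46.4% of them. With no upper limit on UMIs, the log2 fold change of foragers over nurses was 1.85 ± 0.68 (edgeR adjusted p = 0.159). That of queens over workers was 0.95 ± 0.56 (edgeR adjusted p = 0.206). Barcodes of 5000 genes or more were still left out in this setting. It thus brought back only a part of the removed rich barcodes, and not those with 945 and 497 *NPF* UMIs.

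Short neuropeptide F had 5 barcodes with at least 100 UMIs, and none was kept. They held 1331 UMIs in the first forager library, 1028 in the first nurse library, 314 in the second queen library, and 133 and 123 in the first queen library. These barcodes had 49726 to 109502 UMIs in all, and the gene made up at most 1.22% of them. They also held prohormone-2 (LOC409314) at 929 CPM against 444 CPM in other barcodes of 20000 UMIs or more from the same libraries. Orcokinin (LOC726294), another peptide precursor, was at 249 CPM against 23.4 CPM, with at least 10 UMIs in 2 of the 5 barcodes.

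*Crz* had 7 barcodes with at least 100 UMIs, and in these the gene took up to 23.4% of all UMIs. The first nurse library held 4 of them, with 7245, 6210, 5150 and 1443 UMIs, of which only the last was kept. The first forager library held 2, with 2707 UMIs in a removed and 642 in a kept barcode, and the second queen library held 1 kept barcode with 773. In the first nurse library 88.9% of the 21275 *Crz* UMIs lay in removed barcodes, and 61.2% of those kept lay in 1 cell. In the second queen library 80.4% of the 962 kept *Crz* UMIs lay in 1 cell. A single captured cell thus set most of the *Crz* level in these libraries. The 3 removed barcodes of the first nurse library also held 96, 75 and 268 UMIs of allatostatin C (LOC725616), an inhibitory peptide of the brain. The removed forager barcode held 6 of it among 20117 UMIs, and the kept forager barcode held 8 among 2738 UMIs. Of the 7 barcodes, only the 3 removed ones of the first nurse library held at least 10 UMIs of it.

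Among *NPF*, short neuropeptide F and *Crz*, no barcode had at least 10 UMIs of *Crz* and of either other gene. *ILP-2* never reached 10 UMIs and adipokinetic hormone did so in 1 barcode, so their pairs say little. *NPF* and short neuropeptide F reached 10 UMIs together in 5 barcodes, all removed, with 29204 to 97065 UMIs each. The 11 deep barcodes rich in *NPF* held allatostatin A (*Apime-ASTA*), a peptide that curbs feeding in flies, at 1487 CPM against 17.5 CPM in other deep barcodes, from 4 of the 11. The remaining 7 thus held under 10 UMIs of it. The same barcodes were chosen for their *NPF*, so these values are a description.

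**Figure D3:**
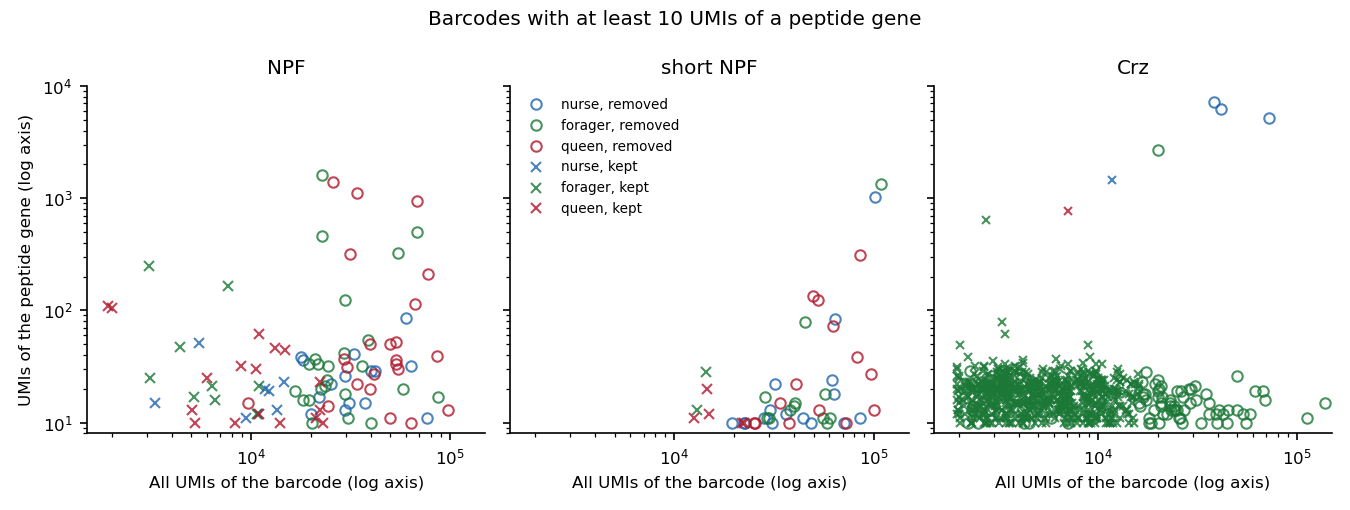
Deposited barcodes with at least 10 UMIs of NPF (96), short neuropeptide F (49) or Crz (707), by all UMIs of the barcode (horizontal, log axis) and UMIs of the gene (vertical, log axis). Circles were removed by the study's filters and crosses were kept. The barcodes with the most copies are mostly circles, and the band of Crz barcodes near 10 to 50 UMIs comes from the first forager library.

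Kept cells with at least 10 UMIs of a gene were counted in each library. For *NPF* there were 12 and 5 in queens, 3 and 5 in nurses, and 4 and 5 in foragers. This was 5.98 and 2.98 per 10000 kept cells in queens and 1.62 to 2.55 in workers, without overlap. The two-sided exact permutation test gave p = 0.0667, the smallest that 2 against 4 libraries allow, and 0.333 after adjustment over 5 genes and 2 comparisons. For short neuropeptide F the counts were 3 and 2 in queens, 1 and 1 in foragers and 0 and 0 in nurses, again with an exact p of 0.0667 and an adjusted p of 0.333. The upper limit on UMIs was set within a caste, at 23474.5 in queens, 16091.5 in foragers and 15838.25 in nurses. Deeper cells were thus kept in queens, and these counts do not compare cells under 1 limit. Kept queen cells with 10 short neuropeptide F UMIs, at 21818 and 22342 UMIs in all, lay above both worker limits. With no upper limit on UMIs, but barcodes of 5000 genes or more still left out, the *NPF* difference fell from 2.32 to 1.53 cells per 10000 and the exact p was 0.20. Without the first queen library the *NPF* difference was 0.82 per 10000.

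*Crz* was spread in another way in the first forager library. There 586 kept cells had 10 UMIs or more of it, against 1 each in the first nurse and second queen libraries and 0 in the other 3, and 583 of them had 10 to 49 UMIs. These 586 cells held 67.1% of the library's *Crz* UMIs. They had a median of 5321 UMIs in all, against 4832 in the cells of the library without *Crz*. They lay in all 40 clusters that had at least 50 cells of this library, and made up between 0.685% and 5.65% of each, with a median of 3.08%.

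The share did not follow the cell class. Cells with 10 or more *Crz* UMIs were 3.04% of the Kenyon-like cells, 3.03% of the other neurons and 3.20% of the glia-like cells of the first forager library. Outside *Crz*, 5 genes were more than 1 higher on the log2 scale in these cells than in cells without *Crz*, led by LOC406093 at 1.89. With cells of 10 or more UMIs left out, an alternative chosen after the data were seen, the *Crz* log2 fold change of foragers over nurses was 1.44 ± 1.20 (edgeR adjusted p = 0.495), so the library was not brought level with the rest.

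**Figure D4:**
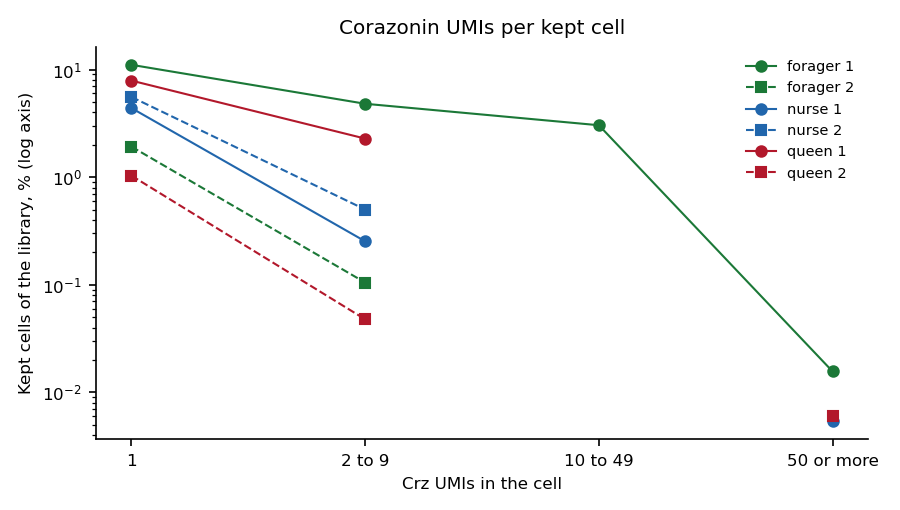
Share of the kept cells of each library (vertical, percent, log axis) by the number of Crz UMIs in the cell (horizontal). Each line is 1 library, circles for replicate 1 and squares for replicate 2, and values of 0 are not drawn. Only the first forager library has cells with 10 to 49 UMIs (583 cells).

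Free RNA in the suspension gives UMIs to cells that do not express a gene, so shares of cells with at least 1 UMI were read against glia-like cells. Each cell was thinned to 2000 UMIs, and 2442 shallower cells were left out, between 0 and 1703 a library. The loss was uneven over classes. In the second queen library it took 302 of 770 glia-like cells and 105 of 6429 Kenyon-like cells. In the first queen library it took 69 of 683 glia-like cells. The shares in glia-like cells of queens thus rest on the deeper cells of that class. The glia-like cells had median depths of 2222 to 3465 UMIs before thinning, the Kenyon-like cells 4675.5 to 6819.

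At equal depth, *Crz* UMIs were found in 10.96% of the Kenyon-like cells, 11.02% of the other neurons and 13.1% of the glia-like cells of the first forager library. Unthinned, the shares were 19.8%, 18.4% and 18.01%. The share thus changed between libraries, from 0.405% to 11.1% over all cells, and in this library little between classes. A share no higher than that of glia-like cells is not read as expression by a class, and the source of the *Crz* UMIs in this library was not tested. For *NPF* the share over all cells ranged from 0.805% to 2.44%, and it was 0.814% to 4.08% in glia-like cells (unthinned 1.86% to 5.22% and 1.90% to 5.64%). For *ILP-2* it ranged from 1.97% to 3.45%, and in glia-like cells from 1.71% to 3.30% (unthinned 5.57% to 9.02% and 4.20% to 7.95%). Both are likewise not read as expression by a class.

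Short neuropeptide F was found at equal depth in 2.26% to 4.22% of the Kenyon-like cells and in 1.14% to 4.56% of the glia-like cells (unthinned 6.92% to 9.84% and 1.76% to 8.57%). The share was above that of glia-like cells in 3 of the 6 libraries. The level was 14.0 to 20.8 CPM in Kenyon-like cells and 3.92 to 19.6 CPM in glia-like cells, higher in Kenyon-like cells in each of the 6. No order of the classes is read from these shares. Adipokinetic hormone was found in 1.79% and 1.71% of the glia-like cells of queens, from 11 and 8 cells with a UMI, and in 0.675% to 0.814% of those of workers. In Kenyon-like cells the share was 0.332% to 0.697%, and in other neurons 0.401% to 0.637% (unthinned 1.33% to 4.25% in glia-like cells, 1.14% to 1.83% and 0.955% to 1.48%). At this depth the classes lay close together in the 4 worker libraries, with overlapping 95% Wilson intervals (counting error only). Thinned to 1000 UMIs, the intervals of glia-like cells and other neurons parted in the second forager library, alone among the worker libraries. They were 0.435% to 1.47% (share 0.801%) and 0.146% to 0.318% (share 0.215%).

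The level of adipokinetic hormone in the glia-like cells was 8.68 and 12.2 CPM in queens, from 31 and 40 UMIs. In foragers it was 3.51 and 4.82 CPM, from 12 and 28 UMIs, and in nurses 5.16 and 4.80 CPM, from 30 and 39 UMIs. Both queen libraries lay above all workers, a contrast singled out after its values had been seen and not tested. Whether these UMIs, read at the 3′ end of the gene, all come from the hormone transcript was not tested either. In other neurons the gene stood at 1.73 to 2.66 CPM, and in each of the 6 libraries this was below its level in the glia-like cells. The glia-like cells were 3.403% to 9.41% of a library. Among the glia-like clusters, cluster 33, which is led by immune genes such as *Apid1* and *Def1*, had 10.95 CPM over 1093 cells and 92 UMIs. It ranged from 6.24 to 20.4 CPM over the 6 libraries, above the next glia-like clusters 31 (5.26 CPM) and 18 (4.64 CPM), whose ranges overlapped its own.

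Across the 44 clusters, short neuropeptide F was highest in Kenyon-like cluster 8, at 85.3 CPM over 3893 cells. The 6 libraries measured 105 and 86.1 CPM in foragers, 83.2 and 108 CPM in nurses, and 54.5 and 63.9 CPM in queens. Next came the unnamed cluster 13, at 52.1 CPM over 2549 cells, with libraries between 40.9 and 63.0 CPM. In the first queen library it stood above cluster 8. Its leading genes include the histamine-gated channel *Hiscl1*. Cluster 38 followed at 32.6 CPM and cluster 2 at 27.6 CPM, and their library ranges of 11.9 to 53.5 and 13.6 to 43.8 CPM overlapped each other. The median over clusters was 9.91 CPM. Cluster 8 held 14.1% of the gene's UMIs in 3.38% of the cells. The queen libraries were the lowest in cluster 8, a cluster picked for its level and not tested.

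*NPF* and *Crz* were highest in the same unnamed clusters, 41 (249 cells) and 2 (7424 cells). *NPF* measured 190 CPM in cluster 41 and 39.3 CPM in cluster 2, and *Crz* 795 and 130 CPM. These levels were uneven over libraries. In cluster 41 *NPF* ranged from 0 to 3196 CPM and *Crz* from 0 to 2827 CPM, and 1 kept cell held 104 of the 166 *NPF* UMIs and another 642 of the 693 *Crz* UMIs. With kept cells of 100 or more UMIs left out, a setting chosen after seeing the data, cluster 41 fell to 71.3 CPM for *NPF*, still the highest. For *Crz* it fell to 58.7 CPM, the fourth, and cluster 2 was highest at 88.6 CPM. Both clusters were shallow, with median UMI counts of 3036 and 2414 per cell, and their leading genes include peptide precursors, among them pigment-dispersing hormone (LOC100577073) and myosuppressin (LOC726861). They could not be given a cell type from the markers.

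*ILP-2* was nearly even, between 5.92 and 22.1 CPM, with a median of 10.8 CPM. Its highest cluster was the glia-like cluster 31, with libraries between 15.5 and 29.6 CPM, followed by the hemocyte-like cluster 39 at 18.6 CPM and cluster 2 at 18.6 CPM, and these ranges overlapped. The ratio of the highest cluster to the median was 2.05 for *ILP-2*, 4.78 for adipokinetic hormone, 8.60 for short neuropeptide F, 26.0 for *Crz* and 30.2 for *NPF*. Without the kept cells of 100 or more UMIs it was 2.97 for *Crz* and 11.3 for *NPF*.

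**Figure D5:**
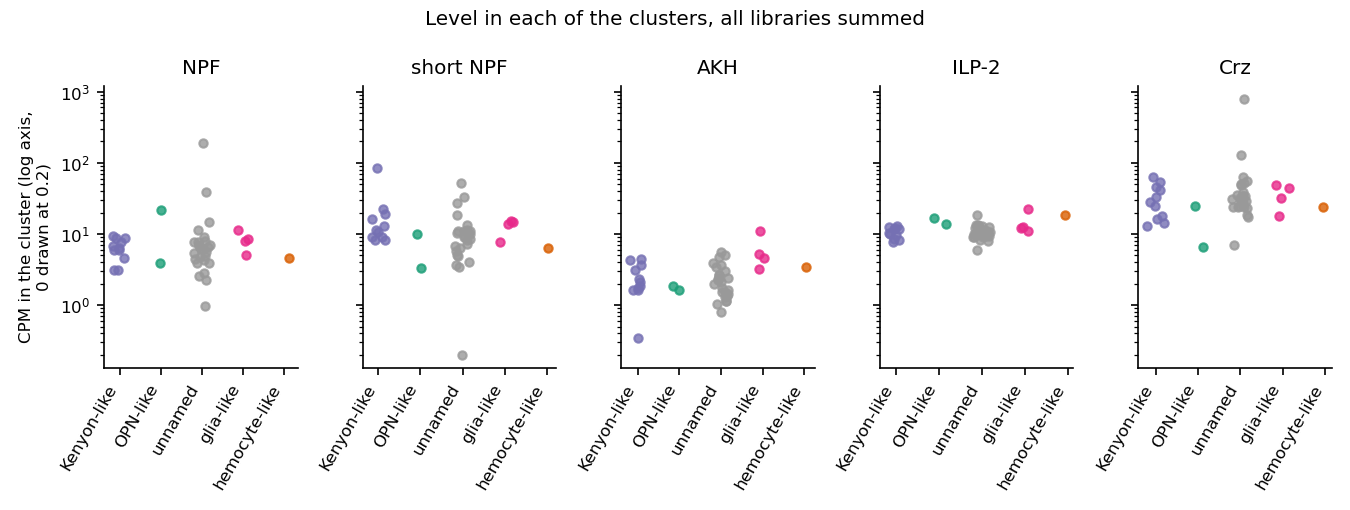
Level of each peptide gene (CPM, log axis) in each of the 44 clusters, all 6 libraries summed, with clusters grouped by class (OPN-like, olfactory projection neuron-like). Each point is 1 cluster, and a value of 0 is drawn at the lower end. Short neuropeptide F is highest in a Kenyon-like cluster (85.3 CPM), NPF and Crz in an unnamed cluster (190 and 795 CPM), adipokinetic hormone (AKH) and ILP-2 in glia-like clusters (10.95 and 22.1 CPM).

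For each peptide the genes most like it over the 44 clusters were sought among 9296 others, as Pearson's r of log2(CPM + 1). The clusters share libraries and differ in depth, so these values are a description. *NPF* was most like myosuppressin (LOC726861, r = 0.94), LOC409512 (0.94), LOC726997 (0.90), *Qbp-1* (0.90) and *Tbh* (0.89), which encodes the last enzyme of octopamine synthesis. Without the 2 clusters where *NPF* was highest, r was 0.87 for LOC726861 and 0.68 for *Tbh*. *Crz* was most like LOC409512 (0.86), SIFamide (LOC100578023, 0.82), *Qbp-1* (0.81), *NPF* (0.81) and *Tbh* (0.81), and r with *NPF* fell to 0.54 without the 2 highest clusters. The likeness was weaker for the other 3 peptides. The nearest genes were LOC412750, LOC100578660, LOC551588, LOC100578920 and LOC113218802 for short neuropeptide F (0.61 to 0.65). They were LOC409708, LOC551581, LOC107965253, LOC408478 and LOC412166 for adipokinetic hormone (0.65 to 0.68), and LOC100578776, LOC552193, LOC102655120, LOC102653894 and LOC107964422 for *ILP-2* (0.66 to 0.72).

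The other genes of peptide signalling were read from lists, which were chosen with earlier results of these data known. Of 4 receptors and partners, *Akhr* was called higher in the queens in bulk, while *Crzr*, *InR-2* (an insulin receptor gene) and LOC100577028 (an insulin-like growth factor precursor) were not. In bulk *InR-2* had a log2 fold change of -0.07 ± 0.36 and LOC100577028 of 0.05 ± 0.21 between queens and workers. None of the 4 was called in the summed cells.

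Of 20 other peptide precursors, 6 were called lower in queens in bulk and none higher. The list's median log2 fold change was -0.82, against -0.01 over all genes, and 2.83% of all genes were called lower. These 6 were prohormone-2 (LOC409314), at -2.20, CCAP (LOC724113, -1.42), orcokinin (LOC726294, -1.41), prohormone-3 (LOC726472, -1.38), diuretic hormone class 2 (LOC113218809, -1.06) and prohormone-4 (LOC409241, -1.01). The 2 called peptide genes described above went in the opposite direction. In the summed single cells the list held 1 gene called higher and 2 lower, with a median of 0.17, where 15.4% of all genes were called, so the count is near the background. Diuretic hormone class 2 was lower there too (-0.76), as was FMRFamide (LOC100578542, -0.76), while prohormone-2 was higher (0.64), the reverse of bulk.

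The short lists stand beside the same shares of all genes (6.88% higher and 2.83% lower in bulk, 15.4% in the summed cells). They hold too few genes for a share to be read from them. Of 2 genes of peptide processing, neuroendocrine convertase 2 (LOC408835), which cleaves peptide precursors, was lower in the queens in bulk (log2 fold change -1.16), and furin-like protease 1 (LOC100577945) was lower in the summed cells (-0.57). Of 3 genes of sugar metabolism, trehalose-phosphate synthase (LOC408867), which makes the blood sugar of insects, and hexokinase-1 (LOC408818) were higher in queens in bulk (1.25 and 1.24). In the summed cells hexokinase type 2 (LOC551005) was lower in queens (-0.63), as was its bulk mean (440 against 743 CPM), not called. The other 4 genes did not repeat their direction in the other assay. In the summed cells hexokinase-1 was at 32.4 and 24.1 CPM in queens, below workers (40.9 to 60.6 CPM). Trehalose-phosphate synthase overlapped there (131 and 117 against 112 to 162 CPM). Queen means were higher for the convertase in cells (699 against 604 CPM) and the protease in bulk (87.4 against 69.9 CPM). No gene of these 4 lists was called between foragers and nurses in bulk or in the summed cells.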

How the data were processed

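The authors deposited raw UMI counts per barcode for 6 single-cell libraries, obtained with Cell Ranger (version 3.1.0; assembly Amel_HAv3.1). For 6 bulk libraries the authors deposited expected counts per gene, estimated with RSEM after trimming with Trimmomatic 0.39 and alignment with STAR, which were rounded here to whole numbers. Kept cells had 200 to 5000 genes, at least 500 UMIs, under 15% mitochondrial UMIs and, within a caste, a UMI total not above the third quartile plus 1.5 times the interquartile range. Doublets were not removed. Cells were clustered with leidenalg 0.10.2 (3000 variable genes without the peptide genes and genes that differed between queens and workers, 30 components, 20 neighbours, resolution 1). Clusters were named from at least 3 enriched markers, and for glia and hemocytes from *repo* or *hml*, a limit set after seeing data.

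Counts summed per library were compared with edgeR 4.0.16 (TMM, filterByExpr, 3 castes in 1 fit) in R 4.3.3, with DESeq2 1.42.0 as alternative. A level in CPM used TMM library sizes for whole libraries and raw totals by cluster or for glia-like cells. On simulated data with 200 genes changed by a log2 of 2 between queens and workers, edgeR recovered 167 in bulk, with 2 false calls among 9804 genes, and 188 in summed cells, with 7 false calls among 11090. Strongly positive cells were compared by exact permutation over libraries. The pools were separate, but nurses and foragers came from 1 colony, so p-values measure the spread between pools. Intervals and limits at 0 cover counting error only. The peptide genes, the lists and the tests were chosen with earlier results of these data known. Genes named beside the peptides were the 5 most alike over clusters of at least 50 cells, among genes with at least 1000 UMIs, and list genes past the threshold. Many list genes known only by product name could not be matched to a symbol and were not analysed here, and no sequences were used here. Replicate numbers did not pair the samples. A list of insulin signalling genes is not reported here.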

Additional observations from a re-analysis of the deposited data

Results flagged for a closer look

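Over the 4 worker libraries, each peptide gene's level in bulk and in summed single cells was checked for a library far from the others, 10 groups in all, of which chance flags about 1 in 20. *Crz* in the single cells of the first forager library, at 147 CPM, stood apart, with 0.878 of the range between it and the next library. *NPF* in the second bulk nurse library, at 3.18 CPM, was far below the other 3, with 0.858 of the range. Without this library the bulk log2 fold change of *NPF* was 0.04 for foragers over nurses (edgeR adjusted p = 0.976) and -0.24 for queens over workers (edgeR adjusted p = 0.530).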

How the results depend on the processing

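Of 160 peptide fold changes under alternatives that kept all libraries, 157 kept direction and call. *NPF* in foragers over nurses passed the threshold only by DESeq2 (adjusted p 0.00222 in all cells and 0.000551 in other neurons). *NPF* in queens over workers turned to -0.12 with cells of 10 or more *NPF* UMIs left out, a setting chosen after seeing the data. With no upper limit on UMIs, but barcodes of 5000 genes or more still left out, strongly positive short neuropeptide F cells turned to -0.03 per 10000 in foragers over nurses. The causes were not tested.

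Counts of all genes called depended on the tool. Between foragers and nurses, edgeR called 1 higher and 0 lower in bulk, against 47 and 51 with DESeq2, 4 and 2 with RLE size factors, and 6 and 4 with no filter. In the summed cells the counts were 3 and 6, against 145 and 342 with DESeq2. The 3 became 5 with RLE size factors and 0 with all deposited barcodes. In Kenyon-like cells they were 1 and 4, against 194 and 362 with DESeq2, and in other neurons 3 and 8, against 128 and 252. Genes lower in queens rose from 734 to 1114 with DESeq2 in the summed cells and from 703 to 1145 in Kenyon-like cells.

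With the replicate number as a block, no peptide call changed. The genes called higher in foragers went from 3 to 0 in the summed cells, and in Kenyon-like cells from 1 and 4 to 0 and 2. Same-numbered libraries correlated between -0.17 and 0.10, so the numbers were not taken to pair the samples.

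Leaving out 1 library in turn gave these ranges. In bulk, 409 to 619 genes were higher and 63 to 264 lower in queens, and 0 to 3 either way between foragers and nurses. In the summed cells, 412 to 1036 were higher and 225 to 609 lower in queens, and 0 to 8 and 1 to 6 in foragers. In Kenyon-like cells the ranges were 211 to 897 and 135 to 576, and 0 to 7 and 0 to 11. In other neurons they were 413 to 980 and 258 to 701, and 1 to 6 and 2 to 9.

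For queens over workers in bulk, the log2 fold change ranged from 1.16 to 1.47 for adipokinetic hormone, 1.40 to 1.95 for *ILP-2* and -0.24 to 0.44 for *NPF*. In the summed cells it ranged from -0.27 to 0.33 for *NPF*, -0.15 to 0.20 for adipokinetic hormone and -2.11 to 0.79 for *Crz*. In Kenyon-like cells these 3 ranged from -0.52 to 0.51, -0.36 to 0.08 and -4.23 to 0.64. In other neurons they ranged from -0.11 to 0.29, -0.15 to 0.14 and -1.63 to 0.95, and *ILP-2* from -0.26 to 0.03.

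For foragers over nurses in bulk, short neuropeptide F ranged from -0.24 to 0.17, adipokinetic hormone from -0.09 to 0.51 and *Crz* from -0.17 to 0.23. In the summed cells these 3 ranged from -0.10 to 0.48, -0.42 to 0.25 and -2.04 to 3.20. In Kenyon-like cells they ranged from -0.11 to 0.29, -0.31 to 0.44 and -1.46 to 3.82, and in other neurons from -0.17 to 0.52, -0.48 to 0.08 and -2.27 to 2.93. Strongly positive cells per 10000 ranged from -0.32 to 0.62 for *NPF* and -0.27 to 304.97 for *Crz* in foragers over nurses, and from -101.63 to 0.12 for *Crz* in queens over workers.

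The level of *Crz* rested on 1 library or 1 cell in several libraries, and adipokinetic hormone had 1926 UMIs in all kept cells. With 2 libraries per caste, an exact test could not reach 0.05.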
